A study of Caenorhabditis elegans with 4 samples.

Results

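The 666 isolated LIN-61 peaks are the binding sites that stand alone on their chromosome, with no other peak of the same list within 10000 bp on either side. They were chosen from the combined peak list of the series on chromosomes II, III, IV, V and X by the distance from the end of one peak to the start of the next, and the first and last peak of each chromosome were dropped. They make up 6.30% of the 10564 combined peaks on these chromosomes, and the whole combined list holds 13662 peaks. The sites were found by ChIP-seq, in which DNA bound by a protein is pulled down with an antibody and sequenced, in wild-type worms (Caenorhabditis elegans, strain N2), a mixed population of males and hermaphrodites kept at 20 degrees Celsius and collected as L3 larvae. The 2 ChIP libraries, made with 1 affinity-purified rabbit polyclonal antibody, and the 2 input DNA libraries shared genotype, stage and sex composition. Whole larvae were used, so a site may be bound in few or many of their tissues. Whether each replicate was a culture of its own is not stated, and the spread between them may be technical. No library without LIN-61 was analysed here, so these lists do not show how many sites depend on the protein.

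LIN-61 is a chromatin protein built of MBT repeats, folds that recognise methylated lysines, and it binds histone H3 methylated at lysine 9. This mark belongs to heterochromatin, which in C. elegans covers many repeats and transposons and is dense on the chromosome arms. Loss of lin-61 contributes to the synthetic multivulva phenotype, in which too many cells take a vulval fate, and the genes of that class repress transcription. Most LIN-61 peaks lie close to others, and the isolated peaks are the exception to that arrangement. The genes and the sequence at these positions were not analysed here, since no annotation or genome of build WS220, on which the peaks are placed, was used.

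The choice rests on the positions in the combined list, so the gaps, number, place, width and score of the members are given as a description with no test. The smaller of the gaps on the 2 sides of a member ranged from 10004 to 272574 bp, with a median of 17928.5 bp and quartiles of 13104 and 27436 bp. It was above 20000 bp for 283 members, above 50000 bp for 50 and above 100000 bp for 5. The members closest to the limit were a pair on X, at 13622475 to 13623020 and 13633024 to 13633345, which are each other's neighbour at 10004 bp, and a peak on II at 15152902 to 15153323 with 10080 bp. Just outside it were peaks on V at 3195876 to 3196083 and on X at 1435112 to 1435286, both with a smaller gap of 9963 bp, and on IV at 4640161 to 4640647 with 9952 bp. Isolated peaks often followed one another, which the rule partly builds in. Neighbouring peaks share the gap between them, so a peak next to a member already meets the rule on that side. The counts of runs are therefore a description and not a measure of clustering. Of the 666, 421 had another isolated peak as the next or previous peak, and the other 245 lay singly between peaks that were not isolated. Runs of 5 or more consecutive members occurred 18 times, 9 of them on X. The longest runs had 9 members. One of these spanned 565025 bp on X from 6742323 to 7307347, and the other 286793 bp on X from 14382495 to 14669287.

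Isolated peaks were a larger share of all peaks in the autosome centres and on X, where the combined peaks are sparse, than in the autosome arms. They were 13.3% of the peaks in the centres, 20.8% on X and 3.49% in the arms. Counting the outer 33.3% of the length on each side of a chromosome as its arms, 286 of the 486 isolated peaks on autosomes II, III, IV and V lay in arms (58.8%, 95% Wilson interval 54.4 to 63.1), against 7906 of 9214 other peaks (85.8%, 85.1 to 86.5). X held 180 of the 666 members (27.0%, 23.8 to 30.5), against 684 of 9898 other peaks (6.91%, 6.43 to 7.43). All intervals given here are for counting error alone and take each peak as a separate draw, although peaks near each other may not be.

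Counted per length, the isolated sites ranged from 2.61 to 13.7 per Mb over 15 stretches, the left, middle and right parts of the 5 chromosomes, and the combined peaks from 31.8 to 294. On III, the left arm held 3.92 isolated peaks per Mb, the centre 8.27 and the right arm 2.61, while all combined peaks numbered 294, 93.6 and 247 per Mb there. On II, the values for isolated peaks were 5.30, 9.42 and 7.26 per Mb. The left arm of IV had 4.29 isolated peaks per Mb, its centre 8.40 and its right arm 10.1. Chromosome V was the most even, with 7.46, 9.32 and 8.03 per Mb. On X, the left and middle parts had 8.47 and 8.30 per Mb and the right part 13.7, the highest of the 15 stretches. The share of peaks that were isolated ranged from 1.06% in the right arm of III, with 12 of 1134 peaks, to 26.1% in the middle of X, with 49 of 188.

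**Figure D1:**
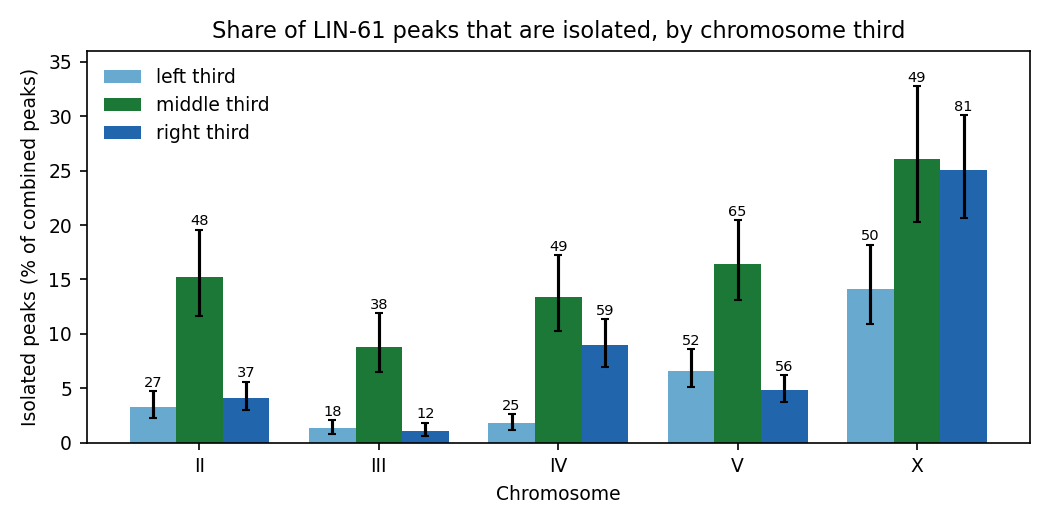
Share of combined LIN-61 peaks that are isolated, in percent (vertical axis), in the left, middle and right part of each chromosome (horizontal axis), each 33.3% of its length. Bars are shares, lines are 95% Wilson intervals from counting error only, and the digits over them are numbers of isolated peaks. On each autosome the middle bar is the highest, from 8.84% on III to 16.5% on V, and on X the middle and right bars reach 26.1% and 25.1%.

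Isolated peaks were narrower than the others, while their scores had nearly the same median. The score is the authors' own value for each peak, and what it measures is not named in the file. Isolated peaks had a median width of 254.5 bp (quartiles 189 and 401 bp) and a median score of 8.55 (quartiles 4.68 and 16.9). The other peaks had a median width of 339 bp (213 and 661 bp) and a median score of 8.61 (4.75 and 19.9). At the narrow end, 200 of 666 isolated peaks (30.0%, 95% Wilson interval 26.7 to 33.6) were under 200 bp, against 2077 of 9898 others (21.0%, 20.2 to 21.8). At the wide end, 56 isolated peaks (8.41%, 6.53 to 10.8) reached 1000 bp, against 1402 others (14.2%, 13.5 to 14.9). A smaller median width was seen within classes of score as well. Among the 25% of peaks with the highest scores, from 19.75 up, the median width was 616.5 bp for 134 isolated peaks and 859 bp for 2507 others, but their median scores also differed, at 30.9 and 36.55. In the next 25% it was 302 bp for 189 isolated peaks and 420 bp for 2352 others, with a median score of 12.9 in both sets. In the 25% with the lowest scores it was 197 bp for 170 isolated peaks and 203 bp for 2471 others. The width of a peak and the gap beside it are set by the same calls, so the width is not independent of the rule.

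The width difference recurred when the rule was applied to the list of each replicate by itself. In replicate 1, 659 of 9112 peaks were isolated (7.23%), with a median width of 239 bp, against 333 bp for the others. In replicate 2, 681 of 7406 peaks were isolated (9.20%), with 243 bp against 312 bp. The mean of the medians was 241 ± 2.83 bp for isolated peaks and 322.5 ± 14.8 bp for the others (SD, n = 2 replicates). An exact permutation test of 2 values against 2 cannot pass a threshold of 0.05, as its smallest two-sided p is 0.333, so none was made.

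**Figure D2:**
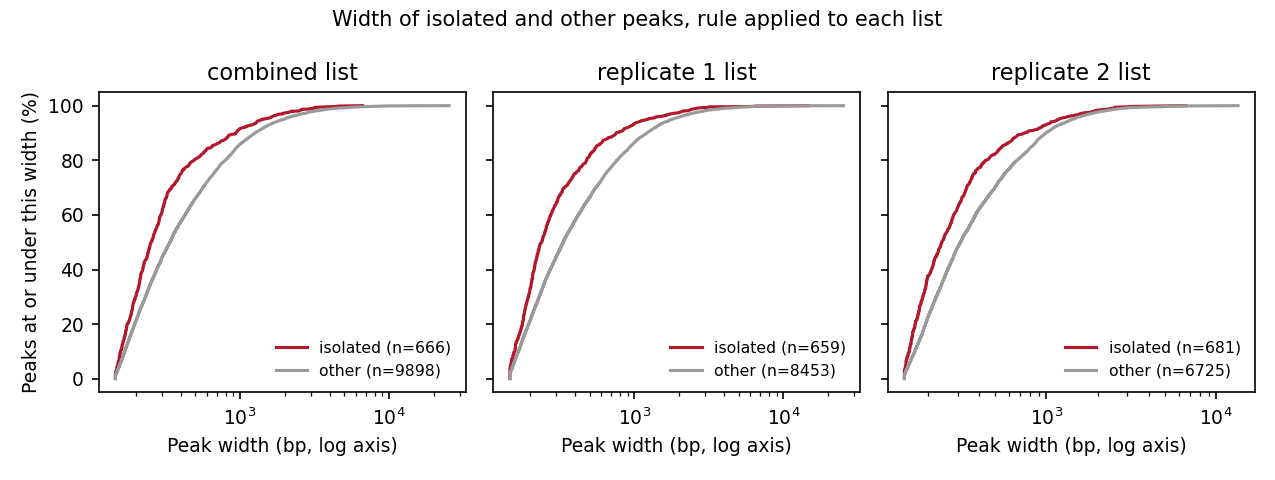
Cumulative percent of peaks (vertical axis) at or under each width in bp (horizontal axis, log scale) in the combined list, replicate 1 and replicate 2, with the 10000 bp rule applied to each list. Red lines are isolated peaks and grey lines the other peaks on II, III, IV, V and X. In all 3 panels the red line rises at smaller widths, with medians of 254.5, 239 and 243 bp against 339, 333 and 312 bp.

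The score of isolated peaks relative to the others differed by region, as a description with no test. In the autosome centres, the 200 isolated peaks had a median score of 9.85, against 6.43 for the 1308 other centre peaks. The isolated median was the higher one in the centre of each of the 4 autosomes. It was 9.70 against 6.02 on II, 9.15 against 6.59 on III, 10.4 against 6.63 on IV and 10.3 against 6.42 on V. In the arms, the order was the opposite over all, with 8.61 for 286 isolated peaks and 9.34 for 7906 others. The arms did not all follow it: on II the left arm gave 8.87 against 11.5 and the right arm 7.83 in both sets, while the right arm of IV gave 9.86 against 7.38. On X the median was 7.08 for both sets, but its parts differed. The isolated median was 7.26 against 8.06 in the left part, 6.71 against 5.61 in the middle and 7.38 against 6.98 in the right part. Applying the rule to the replicate lists gave the same order in the centres, with 9.21 for isolated peaks against 5.88 for others in replicate 1 and 7.68 against 6.69 in replicate 2. The difference averaged 2.16 ± 1.65 there (SD, n = 2), and -1.10 ± 0.63 in the arms. On X the isolated median was the higher one in both replicate lists, at 7.41 against 6.60 in replicate 1 and 7.17 against 6.69 in replicate 2, a mean difference of 0.65 ± 0.23, unlike the equal medians of the combined list.

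**Figure D3:**
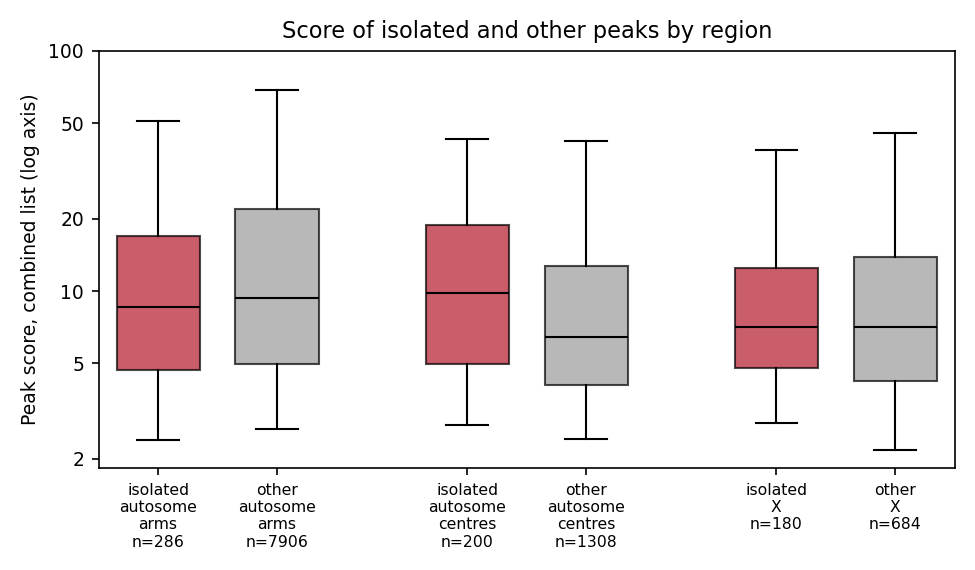
Peak score in the combined list (vertical axis, log scale) for isolated peaks (red) and other peaks (grey) in the autosome arms, the autosome centres and X (horizontal axis, with the number of peaks). Boxes span the quartiles with the median as a line, and whiskers reach the 5th and 95th percentiles. The isolated box sits higher in the centres (medians 9.85 and 6.43), lower in the arms (8.61 and 9.34), and level with the grey one on X (7.08 in both).

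Support in the replicates was checked by an overlap of at least 1 bp with a peak of each replicate list. Of the 666 isolated peaks, 284 overlapped a peak of both replicates (42.6%, 95% Wilson interval 38.9 to 46.4), close to the 45.8% of all 10564 combined peaks. Replicate 1 alone supported 123 (18.5%) and replicate 2 alone 83 (12.5%). The remaining 176 (26.4%, 23.2 to 29.9) overlapped neither, against 20.0% of all combined peaks. Among the 9898 other peaks, the shares were 46.0% in both, 26.8% in replicate 1 only, 7.64% in replicate 2 only and 19.6% in neither. How the combined list was made is not stated, and it may share its reads with the replicate lists, so the overlap is not an independent test of the sites. The isolated peaks had a partner in replicate 1 in 61.1% of cases and in replicate 2 in 55.1%, whereas the other peaks had one in 72.8% and 53.6%.

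Support followed the score closely. In the lowest 25% of scores, up to 4.74, both replicates supported 2 of 170 isolated peaks (1.18%) and 36 of 2471 others (1.46%). In the next 25%, up to 8.61, it was 18 of 173 isolated peaks (10.4%) and 380 of 2568 others (14.8%). In the 25% above that, up to 19.73, 133 of 189 isolated peaks (70.4%) and 1659 of 2352 others (70.5%) were in both. In the highest 25%, 131 of 134 isolated peaks (97.8%, 95% Wilson interval 93.6 to 99.2) and 2478 of 2507 others (98.8%, 98.3 to 99.2) were in both. Isolated peaks with no support at all were more frequent than others in the same score class: 64.1% against 54.1% in the lowest 25%, 32.9% against 22.1% in the next and 5.29% against 1.40% in the one above. The score classes were not matched for width, and the isolated peaks had the smaller median width in each. From low to high score it was 197 against 203 bp, 209 against 262, 302 against 420 and 616.5 against 859. In the highest 25% none of the 134 isolated peaks and none of the 2507 others lacked both replicates. For the isolated peaks this allows a share of up to 2.24%, taken as 3 counts of the total, or 2.79% by the upper Wilson limit.

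Within classes of width the order of the sets was different. Among peaks of 146 to 211 bp, 11 of 231 isolated peaks (4.76%, 95% Wilson interval 2.68 to 8.32) and 57 of 2435 others (2.34%, 1.81 to 3.02) were in both replicates. From 212 to 329 bp it was 41.5% of 224 isolated peaks (35.3 to 48.1) and 28.3% of 2392 others (26.6 to 30.2). From 330 to 649 bp it was 74.5% of 110 (65.7 to 81.8) and 59.4% of 2532 (57.4 to 61.3), and from 650 bp up 97.0% of 101 (91.6 to 99.0) and 91.2% of 2539 (90.0 to 92.2). Isolated peaks were thus in both replicates more often than others in each of the 4 width classes, though not over all peaks or in any score class. In the narrowest and the widest class the intervals overlapped. The width classes were not matched for score, and the isolated peaks had the higher median score in each. From narrow to wide it was 5.29 against 4.46, 7.53 against 6.71, 15.4 against 10.7 and 26.64 against 26.59. The share in neither was 58.4% against 53.3% in the narrowest class, 17.0% against 19.9% in the next, 2.73% against 6.16% in the one above and 0 of 101, which allows up to 2.97% by 3 counts, against 0.28% in the widest.

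**Figure D4:**
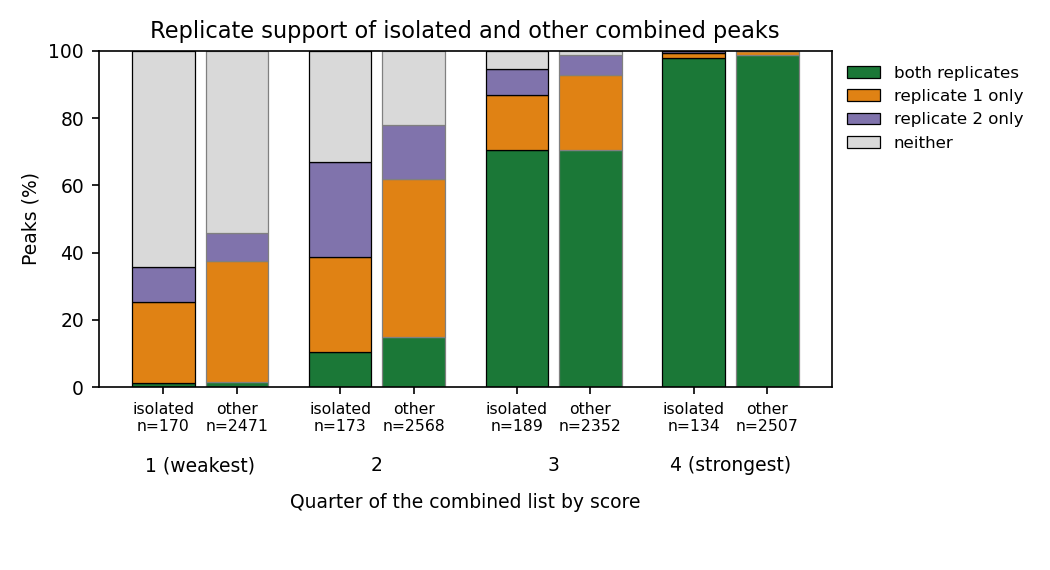
Percent of peaks (vertical axis) found in both replicates, replicate 1 only, replicate 2 only or neither. In each pair, the left bar (dark outline) is isolated peaks and the right bar other peaks. The pairs are 4 classes of the combined peaks on II, III, IV, V and X by score, of 2541 to 2741 peaks each. The share in both replicates was 1.18%, 10.4%, 70.4% and 97.8% for isolated peaks and 1.46%, 14.8%, 70.5% and 98.8% for the others.

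By region, support in both replicates was highest for the isolated peaks of the autosome centres, at 99 of 200 (49.5%, 95% Wilson interval 42.6 to 56.4), against 34.9% of other centre peaks. In the arms it was 128 of 286 (44.8%, 39.1 to 50.5), against 48.6% of other arm peaks. On X it was 57 of 180 (31.7%, 25.3 to 38.8), against 37.0% of other X peaks. These shares were not matched for score. The median score of isolated and other peaks was 9.85 and 6.43 in the centres, 8.61 and 9.34 in the arms and 7.08 for both on X. The centre of IV had the highest share of the autosome centres, with 28 of 49 isolated peaks in both, and the centre of III the lowest, with 15 of 38. The share was similar over the range of gaps among the members. Both replicates supported 43.1% of 383 members with a smaller gap up to 20000 bp, 41.6% of 233 between 20000 and 50000 bp, and 44.0% of 50 above that. The rank correlation across members of smaller gap with score was -0.04, and with width -0.08 (Spearman's rho, n = 666 peaks of 1 list, given as a description).

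The label of isolation was also compared with the replicate lists, which hold peaks that the combined list lacks. The members were chosen to have no combined peak within 10000 bp, and the lists may share reads. High shares are therefore partly built in and are not an independent check. For 612 of the 666 members (91.9%, 95% Wilson interval 89.6 to 93.7), no further peak of either replicate lay within 10000 bp. Replicate 1 placed another peak that near 38 members and replicate 2 near 17. Of the 407 members with a replicate 1 peak, 381 matched a single peak there, and for 358 (88.0%) that peak was isolated in its own list too. Of the 367 members with a replicate 2 peak, 338 matched 1 peak and 326 (88.8%) matched an isolated one. In all, 231 of the 284 members found in both replicates matched 1 isolated peak in each. Members without a replicate peak rarely had one nearby: 14 of the 259 members without a replicate 1 peak and 6 of the 299 without a replicate 2 peak had a peak of that list within 10000 bp.

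Read from the replicates, fewer isolated sites were held in common. Of the 659 peaks isolated in replicate 1, 358 (54.3%) overlapped a member, 252 (38.2%) a combined peak that was not isolated and 49 (7.44%) no combined peak. Of the 681 peaks isolated in replicate 2, 326 (47.9%) overlapped a member, 329 (48.3%) a combined peak that was not isolated and 26 (3.82%) none. Peaks isolated in both replicate lists numbered 309, which is 46.9% of those of replicate 1 and 45.4% of those of replicate 2.

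Where both replicates called a member, their peaks lay near each other, as overlap with the same combined peak largely requires. The midpoints of their best peaks lay a median of 31.75 bp apart over the 284 members, against 59 bp over the 4553 other peaks in both. Both replicates gave a single peak for 245 of the 284 (86.3%), against 72.5% of the others. The median width of these members was 421 bp by the combined calls, 328 bp by replicate 1 and 315.5 bp by replicate 2. The other peaks in both were wider, at 659, 510 and 355 bp in the same order. The distances between midpoints were not adjusted for width. The best replicate score was higher in replicate 1 for 189 of the 284 (66.5%), with medians of 12.0 in replicate 1 and 9.58 in replicate 2. Across these members the scores of the replicates had a Spearman's rho of 0.61 and a Pearson's r of 0.65, against 0.75 and 0.82 over the 4553 other peaks. These are descriptions across peaks of the same 2 libraries, and the range of scores is wider among the other peaks.

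**Figure D5:**
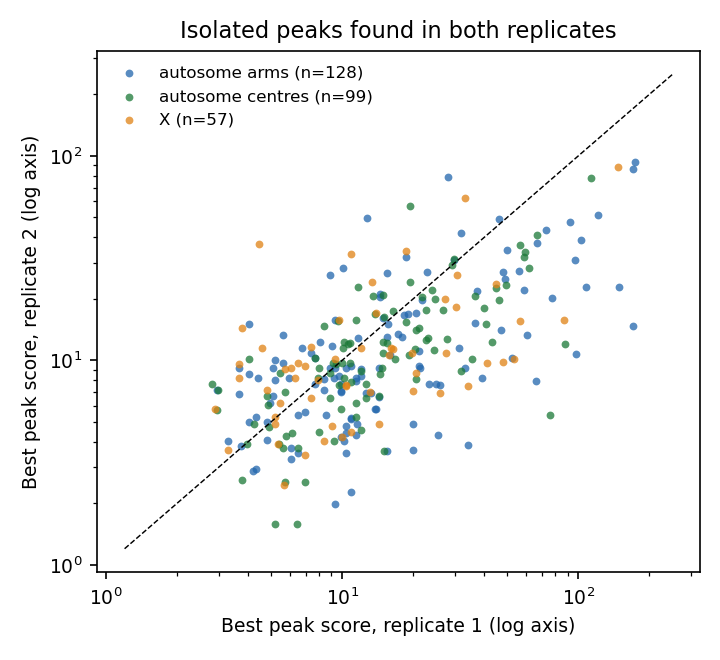
Best peak score in replicate 2 (vertical axis, log scale) against that in replicate 1 (horizontal axis, log scale) for the 284 isolated peaks found in both, coloured by region (128 in autosome arms, 99 in autosome centres and 57 on X). The dashed line marks equal scores; 189 points lie below it, on the side of replicate 1.

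Some members scored very differently in the replicates. The 2 members with the highest ratio of replicate 2 to replicate 1 score and the 2 with the highest ratio the other way round were picked after the values were seen. A 235 bp peak in the middle of X at 7068405 to 7068639 had 4.44 in replicate 1 and 36.9 in replicate 2. A 1622 bp peak on IV at 15971171 to 15972792 was split into 2 peaks in replicate 1, the better of which had 12.8. It was 1 peak in replicate 2, with 49.5. In the other direction, a 1405 bp peak on V at 6071479 to 6072883 had 170.87 in replicate 1 and 14.7 in replicate 2. A 1300 bp peak on V at 9438729 to 9440028 had 76.1 in replicate 1 and 5.40 in replicate 2. Each of these members had a combined score under the higher of its replicate scores. The combined scores were 35.15, 45.44, 26.86 and 11.2 in the order given.

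The strongest isolated sites reached scores well up in the combined list. On these chromosomes 1 of the top 100 peaks (1.0%) and 12 of the top 500 (2.4%) were isolated, against 6.30% of all combined peaks. The highest-scoring member was a 600 bp peak in the right part of X at 14312497 to 14313096, with a combined score of 123.28, 146.95 in replicate 1 and 88.05 in replicate 2. It ranked 48 of 13662 combined peaks, 61 in replicate 1 and 53 in replicate 2, and its neighbours lay 21856 bp to the left and 11311 bp to the right. Next came a 461 bp peak in the centre of IV at 6117682 to 6118142, which scored 108.08, with 112.94 in replicate 1 and 77.51 in replicate 2. A 591 bp peak on the left arm of II at 4701307 to 4701897 had 103.39, 170.52 and 85.98 in the same order of lists, and ranked 24 in replicate 1. These 3 sites were single peaks in every list, and each was isolated in all of them.

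The remaining 7 of the 10 strongest members with both replicates were wider, from 808 to 2184 bp. On the left arm of V, a 1532 bp peak at 5776976 to 5778507 scored 96.85, and a 2184 bp peak at 3520120 to 3522303 scored 88.97. The first of these had 173.52 in replicate 1, rank 21, and was split into 2 peaks in replicate 2, the better of which scored 92.83. A further 3 lay on the right arm of IV, at 16127978 to 16129785 (score 82.21), 13861540 to 13862945 (77.47) and 15983787 to 15984594 (77.03). The others were in the centres of V, at 10267830 to 10269802 (80.68), and of II, at 9201911 to 9203566 (73.05). The last had its nearest neighbours 71326 and 69457 bp away, the widest clear space among these 10. The member in the centre of V was split into 2 peaks in replicate 1, which had another peak 1996 bp from it.

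On chromosome III, where isolated peaks were the smallest share, the best were weaker. A 271 bp peak in the centre of III at 7854495 to 7854765 scored 54.87, with 59.25 in replicate 1 and 33.8 in replicate 2. It was followed by a 359 bp peak at 4921992 to 4922350 with 47.05 and a 1234 bp peak on the right arm at 10122758 to 10123991 with 43.94. All 3 were in both replicates and isolated there as well. The next best on X were a 2974 bp peak at 9604803 to 9607776, with 86.83 in replicate 1 and 15.79 in replicate 2, and a 1373 bp peak at 516108 to 517480, with 33.06 in replicate 1 and 61.93 in replicate 2. Their order differed between the replicates. On II the next best after the sites already given was the 3644 bp peak described with the widest members.

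Of the 10 most isolated members, 9 lay in the central part of their chromosome, and their combined scores ran from 4.84 to 27.21. The one with the largest smaller gap was a 317 bp peak on X at 11093946 to 11094262, with 272574 bp free to its left and 320628 bp to its right. Its combined score was 27.21, with 34.18 in replicate 1 and 7.46 in replicate 2, and it was isolated in all 3 lists. The second, a 173 bp peak on the left part of X at 806604 to 806776, had a score of 11.65 and a partner in replicate 1 only. A pair of members on X, at 9743540 to 9743743 and 9875029 to 9875220, were each other's neighbours 131286 bp apart; the first was found in replicate 1 only and the second in replicate 2 only. On X a 245 bp peak at 7595505 to 7595749 scored 20.39 and was in both replicates. On IV, peaks at 9996694 to 9998016 and 10100371 to 10100598 were neighbours 102355 bp apart and in both replicates, with scores of 18.7 and 11.41, while one at 10658387 to 10658588 scored 4.84 and was in replicate 2 only. The peak at 9996694 was not isolated in replicate 1. That list had 2 further peaks within 10000 bp of it, the nearest 141 bp away. The others were on II at 6683485 to 6683794 (score 8.73, both replicates) and on V at 12865709 to 12865971 (9.83, replicate 1 only). Both replicates thus supported 5 of these 10.

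The widest members were stretches standing by themselves in the combined list, and some of them were split into several peaks in the replicates. A 6627 bp peak on the left arm of V at 3434557 to 3441183 was the widest, with 166853 bp free to its left and 13454 bp to its right. Its combined score was 45.19, with 72.76 in replicate 1 and 43.24 in replicate 2, and it was a single peak in each. On the left part of X, a 4601 bp peak at 1136175 to 1140775 scored only 14.33 and was broken into 4 peaks in replicate 1 and 5 in replicate 2. Another on X, of 4333 bp at 3073369 to 3077701, scored 41.36 and was 3 peaks in each replicate. A 3644 bp peak on II at 11616848 to 11620491 scored 68.11 and was 2 peaks in each replicate. The better of these scored 27.98 in replicate 1 and 78.52 in replicate 2, where it ranked 82. The 3178 bp peak on IV at 15373874 to 15377051 scored 30.43 and was a single peak in both replicates. In all, 18 members (2.70%) reached 2000 bp, against 474 other peaks (4.79%).

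Among the 134 members with scores in the highest 25%, 3 lacked a replicate; they are named here after their values were seen. A 217 bp peak in the centre of III at 6798131 to 6798347, with neighbours 78432 and 73043 bp away, scored 28 in the combined list and 32.66 in replicate 2, rank 745, and had no peak in replicate 1. In the centre of V, a 190 bp peak at 9583004 to 9583193 scored 21.45 and 34.96 in replicate 1, and on the left arm of IV a 187 bp peak at 4810461 to 4810647 scored 20.16 and 23.93 in replicate 1. Neither had a peak in replicate 2. All 3 were narrow. The 176 members found in neither replicate had a median width of 172.5 bp and a median score of 4.37. The highest-scoring of them, also chosen after the values were seen, was a 199 bp peak on the left arm of II at 1712296 to 1712494 with 12.74.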

How the data were processed

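LIN-61 ChIP and input DNA libraries, 2 each, were grouped by title. Per the labels' protocols, frozen, ground worms spent 20 minutes in the crosslinker EGS and 10 more in EGS with formaldehyde. Per the file headers, peaks are binding sites called with MACS on build WS220; for the version, threshold, control, aligner and filters, nothing is stated there. The deposited score of each peak is the authors' own value, of unnamed quantity, and was used to describe and rank peaks. Each ChIP library has a peak list; how the authors made the combined list is not stated. The lists give no read counts, so depth is unknown. The input libraries have no list analysed here.

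From these, gaps (start minus previous end), overlaps of at least 1 bp and Wilson intervals were computed. The last base reached by a peak in the lists served as each chromosome's end, and midpoints placed peaks in arms. Regions named are the 10 highest-scoring members with both replicates, the 10 with the largest smaller gap, the 5 widest, the top 3 per chromosome and those nearest the limit. The members and rules were chosen with earlier results of these data known; the comparison by region in each replicate list was added later. Chromosome I was left out, as were 2 replicate 1 peaks on mitochondrial DNA. Sequence and gene content, although planned, were not run. The procedures were tested on 2000 simulated peaks and recovered all 199 planted isolated ones. Python 3.11.15, numpy 2.4.6, pandas 2.3.3, scipy 1.17.1 and matplotlib 3.10.9 were used.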

Additional observations from a re-analysis of the deposited data

How the results depend on the processing

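No result below carries a test, so each is given as a value. The share of combined peaks that are isolated, 6.30%, was 11.5% with a limit of 5000 bp and 2.68% with 20000 bp, as a looser or stricter limit gives by construction, and 7.23% and 9.20% in the replicate lists alone. Support in both replicates, 42.6%, was 41.7% at 5000 bp and 42.0% at 20000 bp. It was 37.5% where peaks of each replicate had to cover 50% of the member, and 79.9% among the 333 members at or above the median score of the combined list, where 3.60% were in neither. The median width was 249 bp at 20000 bp and 239 to 243 bp in the replicate lists. The arm share of autosomal members, 58.8%, was 38.3% with arms of 25% of the length on each side, 66.7% at 5000 bp, 52.7% at 20000 bp, 56.4% at or above the median score and 58.4% to 60.9% in the replicate lists. The share on X, 27.0%, was 21.5% at 5000 bp, 33.6% at 20000 bp and 21.9% to 22.2% in the replicate lists. Under both limits the isolated peaks had the lower arm share, the higher X share and the smaller median width, as at 10000 bp. The cause was not tested, apart from limits that set the value by construction. Support cannot be had from 1 replicate list, and unknown depth limits what the lists can show of weak neighbours. No paired analysis was possible because ChIP and input share replicate numbers but only ChIP has peak lists analysed here.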
